A study of Mus musculus with 8 samples.

Results

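Markers of the formative and primed epiblast were followed in mouse embryonic stem cells depleted of cohesin or condensin. The markers were 7 genes taken by symbol, Pou3f1, Sox3, Sox4, Otx2, Zic2, Fgf5 and Cldn6, out of 18140 genes on the array. They carried 17 probe sets with exactly 1 gene symbol. Of the 7, 6 were among the 12394 genes tested, and each of those lay above the array median on all 8 arrays. Fgf5 did not pass the filter on low values.

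As embryonic stem cells leave the naive state they pass through a formative state, like the epiblast at implantation, before the primed state that precedes gastrulation. Naive factors such as Klf4, Esrrb and Tfcp2l1 are then switched off, and the transcription factors Otx2 and Pou3f1 (Oct6), the growth factor Fgf5 and the DNA methyltransferase Dnmt3b are switched on. Sox3, Sox4, Zic2 and Pou3f1 also mark early neural cells, and the tight junction protein Cldn6 is found in other early embryonic epithelia too, so none of the 7 defines 1 cell type alone.

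All cells were of the V6.5 line and were infected with a virus carrying a short hairpin RNA, with polybrene at 8 µg/ml. They were selected in 4 µg/ml puromycin for 4 days, and RNA was taken on day 5. The 4 groups held 2 Affymetrix arrays each. Smc1 (gene Smc1a, a core subunit of the cohesin ring) was depleted with 1 hairpin in 2 biological replicates, CapH2 (gene Ncaph2, a condensin II subunit) with hairpins 3 and 4, and Smc2 (the subunit shared by condensin I and II) with hairpins 1 and 2. The control was 1 hairpin against GFP in 2 biological replicates, so these control cells carried virus and selection as well. Effects of a single hairpin on genes other than its target cannot be told apart from those of the target in the Smc1 and GFP groups.

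The deposited values are intensities, a linear brightness per probe set scaled by array, and array medians lay between 62.5 and 74.5. Changes are given as differences of log2(intensity + 16), which understates the change of dim probe sets. The standard errors (SE) and Benjamini-Hochberg adjusted p-values are those of limma over all genes tested, and a gene was called at an adjusted p below 0.05. Pearson's r between arrays over the genes tested was 0.968 to 0.981 within groups and 0.914 to 0.985 between groups. The targeted genes fell in their own knockdowns, and in log2 terms Smc1a dropped by 2.95, Ncaph2 dropped by 2.96 and Smc2 dropped by 1.64 (adjusted p = 7.81e-05, 0.00115 and 0.0154). The Actb 3' over 5' signal, which reports on how intact the labelled RNA was, came to 1.70 and 1.84 in Smc1 cells, 1.67 and 1.98 with CapH2 hairpins 3 and 4, 1.82 and 2.18 with Smc2 hairpins 1 and 2, and 2.18 and 2.04 in GFP cells. In bulk RNA, more cells expressing a gene and more RNA per cell cannot be told apart.

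**Figure D1:**
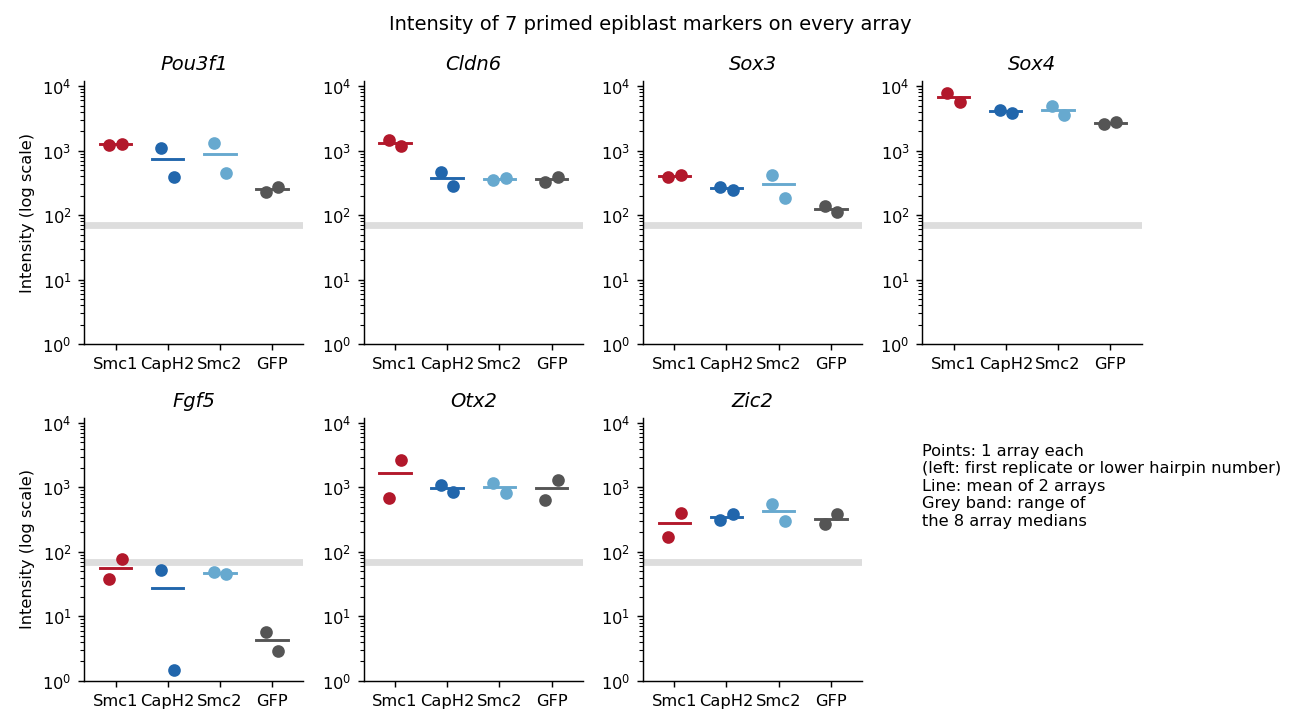
Intensity of the 7 markers on each of the 8 arrays (log axis), with the Smc1, CapH2, Smc2 and GFP groups from left to right, a point per array and a line at the mean of 2 arrays. Pou3f1, Sox3 and Sox4 lay above both GFP arrays on all 6 knockdown arrays, Cldn6 stood apart on the 2 Smc1 arrays, and Fgf5 stayed near or below the grey band of the array medians.

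With cohesin depleted, 4 of the 6 tested markers were called higher, Pou3f1, Cldn6, Sox3 and Sox4, and none was called lower. Over all genes tested, 9.30% were called higher and 4.69% lower in the same comparison. The median change of the 6 markers was 1.44 on the log2 scale, beside 0.03 for all genes tested. Among the 6 tested markers, the 4 called were also those whose 2 Smc1 arrays lay above both GFP arrays, which held for 34.5% of all genes tested. Otx2 and Zic2 were not called. The markers were chosen with earlier results of these data known, so these shares describe the list and do not test it.

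Pou3f1 encodes a POU-domain transcription factor that is induced on exit from the naive state and again in neural and glial precursors. Its brighter probe set measured 1234 and 1267 in Smc1 cells, 1110 and 384.6 with CapH2 hairpins 3 and 4, 1335 and 452.2 with Smc2 hairpins 1 and 2, and 231.8 and 276.9 in GFP cells. All 6 knockdown arrays were above both GFP arrays. Smc2 hairpin 1 lay above both Smc1 arrays, and CapH2 hairpin 3 lay somewhat below them. The other hairpin of each condensin knockdown stayed well below. The means were 1251 ± 23.3 in Smc1, 747.1 ± 512.7 in CapH2, 893.4 ± 624.03 in Smc2 and 254.3 ± 31.9 in GFP cells (SD, n = 2 each). Against GFP the log2 change was 2.23 in Smc1 cells (SE 0.513, limma adjusted p = 0.0204). In CapH2 and Smc2 cells it was 1.32 and 1.56 (SE 0.513 each), neither of them called (adjusted p = 0.364 and 0.279).

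The split between hairpins set the error of Pou3f1. The higher array was 2.89 times the lower within CapH2 and 2.95 times within Smc2, but 1.03 times within Smc1 and 1.19 times within GFP. The 2 condensin arrays high in Pou3f1, hairpin 3 of CapH2 and hairpin 1 of Smc2, were also those with the lower Actb ratio of their group. With that ratio as a term in the fit, the change was 0.91 in Smc1 cells (adjusted p = 0.114), 0.21 in CapH2 cells and 1.14 in Smc2 cells (adjusted p = 0.0700). Both Smc1 arrays had a lower ratio than both GFP arrays. Fits with this term, for any marker, thus cannot separate the ratio from the Smc1 knockdown. The Smc1 call was also lost without either Smc1 replicate (adjusted p = 0.130 and 0.0748) or either GFP replicate (0.148 and 0.0865), at changes between 2.11 and 2.35, without the variance trend (0.0509), and with both probe sets averaged (1.52, adjusted p = 0.0615). The dimmer Pou3f1 probe set measured 99.4 and 218.7 in Smc1 cells, 107.6 and 60.4 in CapH2, 162.0 and 71.99 in Smc2, and 70.7 and 85.3 in GFP cells. It followed the same hairpins, and its change of 0.81 in Smc1 cells was not called when every probe set was fitted as its own feature (adjusted p = 0.252). On it both condensin groups overlapped with GFP, with changes of 0.05 in CapH2 and 0.42 in Smc2 cells. All condensin arrays lay above GFP on the brighter Pou3f1 probe set only.

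Sox3 encodes a SOXB1 transcription factor of the epiblast and neural plate. Its intensity was 392.9 and 421.3 in Smc1 cells, 277.8 and 249.01 with CapH2 hairpins 3 and 4, 424.0 and 181.8 with Smc2 hairpins 1 and 2, and 137.4 and 112.7 in GFP cells. No knockdown array overlapped with GFP, while the Smc2 arrays spanned the range of both other knockdowns. The log2 change was 1.59 in Smc1 cells (SE 0.339, limma adjusted p = 0.0154). It was 0.99 in CapH2 and 1.07 in Smc2 cells, not called (adjusted p = 0.321 and 0.278). The Smc1 call was lost without either Smc1 replicate (adjusted p = 0.105 and 0.0657), without either GFP replicate (0.0909 and 0.0922), with both probe sets averaged (1.10, adjusted p = 0.103), and with the Actb ratio as a term (1.08, adjusted p = 0.134). The other Sox3 probe set lay below the median of every array, between 6.93 and 54.2.

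Sox4 encodes a SOXC transcription factor expressed in the epiblast and in many progenitor cells. Its brightest probe set measured 7857 and 5587 in Smc1 cells, 4309 and 3844 with CapH2 hairpins 3 and 4, 4878 and 3541 with Smc2 hairpins 1 and 2, and 2609 and 2796 in GFP cells. The order was clear at both ends: both Smc1 arrays lay above all condensin arrays, and all condensin arrays lay above GFP. Sox4 rose by 1.29 on the log2 scale in Smc1 cells (SE 0.205, limma adjusted p = 0.00535), a 2.45-fold change. In CapH2 and Smc2 cells the change was 0.59 and 0.62 (SE 0.205 each), not called (adjusted p = 0.322 and 0.283). Leaving out Smc1 replicate 1 ended the Smc1 call (1.04, adjusted p = 0.0706), as did leaving out GFP replicate 1 (1.24, adjusted p = 0.0578).

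Sox4 had 8 probe sets, more than any other marker, and they moved alike where they were bright enough to be tested. Of its 6 probe sets in the probe set fit, all had both Smc1 arrays above both GFP arrays, with log2 changes between 0.81 and 1.29, and 3 were called. They read 1 gene on the same arrays and are not independent, and the shares over all probe sets are not given here. The second brightest measured 904.2 and 769.2 in Smc1 cells, 444.7 and 446.4 in CapH2, 460.3 and 440.3 in Smc2, and 411.98 and 415.9 in GFP cells (change in Smc1 cells 0.98, adjusted p = 0.0107). On this probe set the condensin arrays were barely above GFP, with changes of 0.10 and 0.12, against 0.59 and 0.62 on the brightest. The size of the Sox4 difference in condensin-depleted cells thus differed between probe sets of the same gene. The 2 dimmest probe sets lay between 1.52 and 13.6 on every array.

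**Figure D2:**
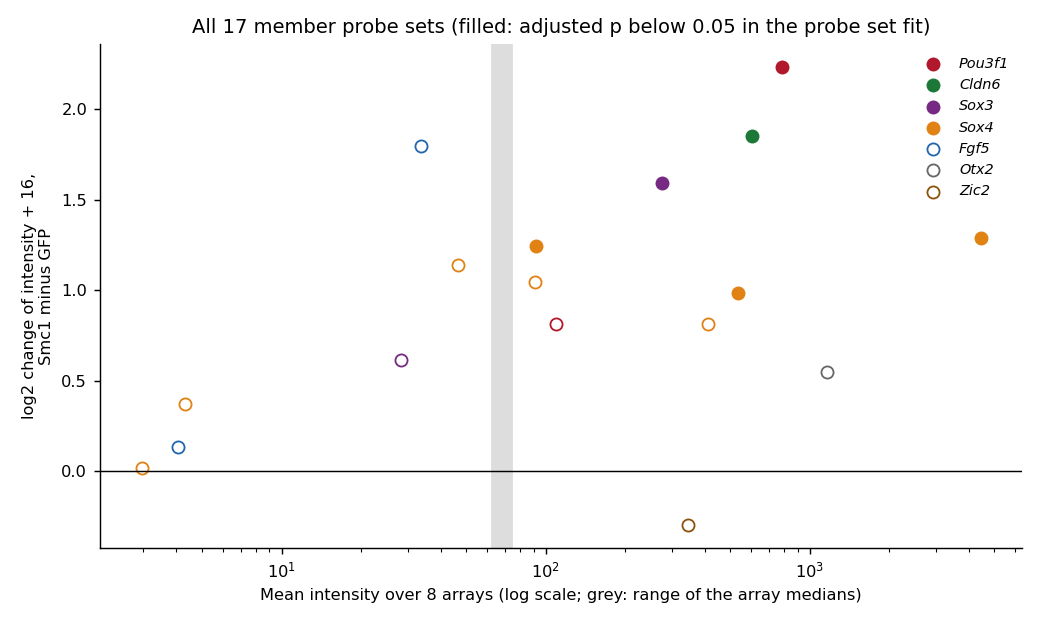
Mean intensity over 8 arrays (log axis) against the log2 change in Smc1 relative to GFP cells for the 17 probe sets of the 7 markers, filled where called in the fit of every probe set. The 6 called probe sets belong to Pou3f1, Cldn6, Sox3 and Sox4 and lie to the right of the grey band of the array medians, and the Zic2 probe set is the only point below 0.

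Otx2, a homeobox factor that drives the exit from naive pluripotency, showed the widest spread between replicates of 1 hairpin. It measured 673.1 and 2699 in Smc1 cells, 1107 and 853.1 with CapH2 hairpins 3 and 4, 1189 and 819.1 with Smc2 hairpins 1 and 2, and 647.5 and 1301 in GFP cells. The highest and nearly the lowest array of the series were thus both Smc1 arrays, 4.01 times apart. The change in Smc1 cells was 0.55 (SE 0.542, limma adjusted p = 0.529), with a 95% interval from -0.66 to 1.76. It was 1.54 without Smc1 replicate 1 and -0.44 without Smc1 replicate 2, called in neither case. In CapH2 and Smc2 cells it was 0.08 and 0.10 (adjusted p = 0.963 and 0.953).

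Zic2, a zinc finger factor of the primed epiblast and the neural tube, likewise had overlapping groups. It measured 168.1 and 398.03 in Smc1 cells, 313.8 and 385.0 with CapH2 hairpins 3 and 4, 551.6 and 299.2 with Smc2 hairpins 1 and 2, and 268.6 and 389.3 in GFP cells. No group stood apart from another. The changes against GFP were -0.30 in Smc1, 0.10 in CapH2 and 0.32 in Smc2 cells (SE 0.400 each, limma adjusted p = 0.654, 0.936 and 0.754). The interval in Smc1 cells, from -1.19 to 0.59, leaves out a rise of the size seen for Pou3f1, Cldn6, Sox3 or Sox4.

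Fgf5, a secreted fibroblast growth factor and a standard marker of the post-implantation epiblast, was dim in every group. One probe set measured 37.4 and 76.4 in Smc1 cells, 53.1 and 1.501 with CapH2 hairpins 3 and 4, 48.1 and 45.3 with Smc2 hairpins 1 and 2, and 5.67 and 2.90 in GFP cells. Both Smc1 arrays and both Smc2 arrays lay above both GFP arrays, but Smc1 replicate 2 alone exceeded its array's median. The other probe set lay between 1.58 and 5.94 on all 8 arrays. No detection calls were used here, so whether any of these values was above background is not known, and no fold change is given.

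Cldn6 encodes a claudin, a membrane protein of tight junctions, and it was higher in the Smc1 knockdown while both condensin knockdowns overlapped with GFP. It measured 1465 and 1201 in Smc1 cells, 462.7 and 279.2 with CapH2 hairpins 3 and 4, 349.5 and 376.4 with Smc2 hairpins 1 and 2, and 322.2 and 392.5 in GFP cells. The 6 other arrays overlapped with each other and stayed below 500. Cldn6 rose to 1333 ± 186.3 in Smc1 cells, against 357.4 ± 49.7 in GFP cells (SD, n = 2 each), which is 1.85 higher in log2 terms (limma SE 0.257, adjusted p = 0.00332). In CapH2 and Smc2 cells the change was 0.02 and 0.03 (adjusted p = 0.985 and 0.971), with intervals from -0.56 to 0.59 and from -0.55 to 0.60. The Smc1 call held with the Actb ratio as a term (1.51, adjusted p = 0.0233) and was lost without Smc1 replicate 1 (1.71, adjusted p = 0.0507).

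The start sites of Sox4 and Cldn6 are shown because these are the 2 markers higher in Smc1 cells than in both control and condensin-depleted cells. RefSeq promoter windows of 300 bases in GRCm38.p6 were held for 4 of the 7 markers. Capitals mark a CCAAT box (CCAAT) or a GC box (GGGCGG), searched on both strands along with a TATA box (TATAAA) and the octamer (ATGCAAAT). The Sox4 window is chr13:28953650-28953949 on the minus strand and the Cldn6 window chr17:23679115-23679414 on the plus strand.
Sox4: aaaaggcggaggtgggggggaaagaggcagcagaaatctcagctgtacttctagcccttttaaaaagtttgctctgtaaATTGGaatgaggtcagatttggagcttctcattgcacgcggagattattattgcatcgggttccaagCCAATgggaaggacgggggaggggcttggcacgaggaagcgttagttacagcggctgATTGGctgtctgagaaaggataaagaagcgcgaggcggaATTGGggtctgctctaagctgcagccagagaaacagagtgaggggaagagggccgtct
Cldn6: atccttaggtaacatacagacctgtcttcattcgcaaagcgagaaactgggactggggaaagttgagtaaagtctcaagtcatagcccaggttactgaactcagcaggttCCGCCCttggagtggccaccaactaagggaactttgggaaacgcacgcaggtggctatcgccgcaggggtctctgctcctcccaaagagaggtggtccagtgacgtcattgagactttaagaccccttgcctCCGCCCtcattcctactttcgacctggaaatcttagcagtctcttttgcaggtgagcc
The Sox4 window held 4 CCAAT boxes and no GC box, and the Cldn6 window held 2 GC boxes and no CCAAT box. Of 32851 promoter windows, 37.4% held a CCAAT box, 35.7% a GC box, 13.6% a TATA box and 1.74% the octamer, and neither of the last 2 was in these windows. No binding or chromatin data enter here, so these letters are a description of the sequence only.

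**Figure D3:**
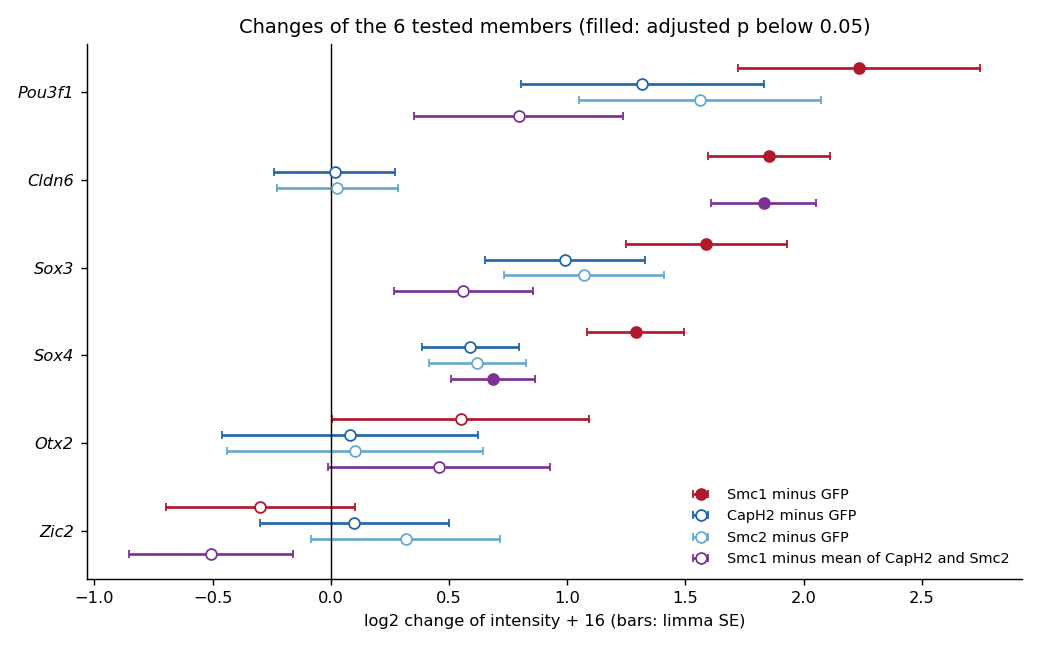
The log2 change with its limma SE for the 6 tested markers in 3 comparisons against GFP and in Smc1 cells against the averaged condensin knockdowns, filled where called. Cldn6 has nearly the same size in the Smc1 comparisons against GFP and against the condensin knockdowns (1.85 and 1.83). In CapH2 and Smc2 cells against GFP, Cldn6 lies at 0.02 and 0.03, and Pou3f1, Sox3 and Sox4 lie between 0.59 and 1.56.

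In condensin-depleted cells none of the 6 tested markers was called by limma, in either the CapH2 or the Smc2 knockdown, where 0.0161% of all genes were called in each. At an unadjusted p below 0.05, Pou3f1, Sox3 and Sox4 were higher in both knockdowns, 3 of 6 markers, beside 7.56% of all genes for CapH2 and 7.28% for Smc2. For these same markers both arrays lay above both GFP arrays, as did 25.3% of all genes in CapH2 and 23.1% in Smc2. These comparisons share the GFP arrays with each other and with the Smc1 comparison. Leaving out 1 Smc2 array moved both ways. Without hairpin 2 the change was 2.33 for Pou3f1 and 1.65 for Sox3, both called, in a fit that called 195 genes in all against 2 with every array. Without hairpin 1 it was 0.80 and 0.49 (adjusted p = 0.917 for both), in a fit that called 0 genes.

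The mean of the 3 knockdowns was also set against GFP. A large change in 1 knockdown can carry this mean, so a call in it does not show a shared change. The targeted genes Ncaph2 (-1.22) and Smc1a (-1.05) were called in it too. Sox4 (0.83, SE 0.168, limma adjusted p = 0.0321) and Sox3 (1.22, SE 0.276, adjusted p = 0.0462) were called higher, 2 of 6 markers, beside 2.54% of all genes. Pou3f1 had the larger change and did not pass (1.70, SE 0.419, adjusted p = 0.0572). Cldn6 was not called (0.63, adjusted p = 0.114). The comparison called neither marker without CapH2 hairpin 3, Smc1 replicate 1 or either GFP replicate, or with the Actb ratio as a term (Sox4 0.56 and Sox3 0.85, adjusted p = 0.161 and 0.254). Without Smc1 replicate 2 it called Sox4, among 343 genes in all, and without CapH2 hairpin 4 it called 4 markers, among 800 genes in all, against 418 with every array.

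Whether cohesin and condensin depletion differed was tested as a contrast of the knockdowns alone, in the fit whose spread is also estimated from the GFP arrays. Cldn6 was higher in Smc1 cells than in the mean of the CapH2 and Smc2 cells by 1.83 (SE 0.222, limma adjusted p = 0.00355) and Sox4 by 0.69 (SE 0.178, adjusted p = 0.0449). These were 2 of 6 markers, beside 5.53% of all genes called higher. Pou3f1 (0.79, interval from -0.20 to 1.78, adjusted p = 0.320) and Sox3 (0.56, interval from -0.09 to 1.21, adjusted p = 0.286) were not called, so a larger change in Smc1 cells was not shown for them. Sox4 lay close to the threshold: its call was lost without any of 7 arrays (adjusted p between 0.0527 and 0.413), and kept without Smc2 hairpin 1. With both GFP arrays out of the fit, Cldn6 was called (adjusted p = 0.0129) and Sox4 was not (adjusted p = 0.0741). Cldn6 was lost only without Smc1 replicate 1 (1.69, adjusted p = 0.0916).

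Between CapH2 and Smc2 cells limma called none of the 6 tested markers (adjusted p = 1 for all 6, and 0 of 6 at an unadjusted p below 0.05). The shares of all genes were 0.00807% for the call and 1.03% for the unadjusted p. The differences, CapH2 minus Smc2, lay between -0.24 for Pou3f1 and -0.01 for Cldn6. Their intervals were widest for Otx2, from -1.23 to 1.19, and Pou3f1, from -1.39 to 0.90, and narrowest for Sox4, from -0.49 to 0.43. These are 95% intervals not adjusted for the number of genes tested, and with 2 arrays per group differences within them were not excluded.

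The order of group means was Smc1, Smc2, CapH2, GFP for 5 of the 7 markers, Pou3f1, Sox3, Sox4, Otx2 and Fgf5. The share of all genes in this order is not given here, so this describes the markers only. For Otx2 the Smc2, CapH2 and GFP means were nearly equal (1004, 979.9 and 974.3), and Fgf5 may not be above background. For Pou3f1, Sox3 and Sox4, Smc2 and CapH2 overlapped and CapH2 lay above GFP without overlap. Smc1 overlapped with Smc2 for Pou3f1 and Sox3 but not for Sox4. For Cldn6, the Smc1 arrays stood above 3 overlapping groups. For Otx2, Zic2 and Fgf5 all neighbours in the order overlapped, and Smc1 was the lowest group for Zic2.

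Across the 8 arrays, Pearson's r of log2 values was 0.93 between Pou3f1 and Sox3, 0.90 between Sox3 and Sox4 and 0.88 between Pou3f1 and Sox4. It was 0.80 between Cldn6 and Sox4, 0.58 between Cldn6 and Sox3 and -0.49 between Cldn6 and Zic2. These describe 4 groups of 2 arrays that share hairpins and scaling. The genes most like Pou3f1 were Setd1b (r = 0.994), a histone H3 methyltransferase gene, and the kinase gene Prkd3 (0.992), and those most like Sox3 were Pax6 (0.9885), a neural and eye transcription factor, and the Wnt antagonist gene Sfrp2 (0.983). Rnd3 (0.994) and Mtch1 (0.987) were most like Sox4, and Endod1 (0.992) and Greb1l (0.992) most like Cldn6. For Otx2 these were 6030458C11Rik (0.971) and Pgp (0.948), and for Zic2 Irf2bp1 (0.970) and Sptb (0.948).

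Relatives of the markers differed in direction in Smc1 cells. Of 11 tested relatives, 3 were called higher, 3 lower and 5 neither (median 0.31, beside 0.03 for all genes). Over all genes tested, 9.30% were called higher and 4.69% lower. Among the SOXB1 genes, Sox3 rose while Sox2 fell by 0.88 (limma adjusted p = 0.0143) and Sox1, the neural plate member, fell by 2.29 (adjusted p = 0.0156). Sox1 measured 77.8 and 17.999 in Smc1 cells, 437.6 and 475.9 with CapH2 hairpins 3 and 4, 542.0 and 210.0 with Smc2 hairpins 1 and 2, and 260.7 and 260.3 in GFP cells, so that the Smc1 arrays were the lowest of the series, 1 just above and 1 below its array median. Among the SOXC genes, Sox11 rose with Sox4 (1.72, adjusted p = 0.00634) and Sox12 was not called (-0.04, adjusted p = 0.937).

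Among the claudins, Cldn3 (1.31, limma adjusted p = 0.0281) and Cldn4 (1.03, adjusted p = 0.0426) rose with Cldn6 in Smc1 cells, and all 3, with Cldn7 (1.83, adjusted p = 0.0123), were higher in Smc1 cells than in the mean of the condensin knockdowns. Cldn7 against GFP (1.07, adjusted p = 0.0860) and Cldn9, the gene next to Cldn6 on chromosome 17 (0.51, adjusted p = 0.327), were not called. Fgf4, the growth factor made by naive cells, fell by 2.37 (adjusted p = 0.0147). The relatives of Pou3f1 and Zic2 that were tested, Pou3f3 (0.31) and Zic5 (-0.23), were not called (adjusted p = 0.572 and 0.697).

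Keratins of simple epithelia and the trophectoderm, like the claudins, were higher in Smc1 cells than in condensin-depleted cells. Of 11 tested trophectoderm markers, 6 were called higher in Smc1 cells than in the mean of the condensin knockdowns, beside 5.53% of all genes, and 1 was lower. Among the 6 were Krt19 (2.81, limma adjusted p = 0.00290), Krt18 (1.69, 0.0119) and Krt8 (1.93, 0.0139). Tfap2c was lower (-0.99, adjusted p = 0.0125). The 12 listed trophectoderm genes summed to 55262 and 40471 in Smc1 cells, 20595 and 11049 in CapH2 cells, 13148 and 19712 in Smc2 cells, and 19957 and 28206 in GFP cells. Krt8 and Krt18 made up most of each of these sums. Elf5, a defining factor, lay below the median on all 8 arrays. Against GFP, 2 of 11 were called higher in Smc1 cells (Krt19 and Cdx2) and 1 lower, beside 9.30% and 4.69% of all genes. Krt8 and Krt18 were not called against GFP. The median change of the 11 against GFP was 0.79 in Smc1, -0.32 in CapH2 and -0.47 in Smc2 cells. The contrast with the condensin mean thus also takes in lower condensin values, none of them called. The part of other epithelial cells in the rise of Cldn6 was not tested.

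**Figure D4:**
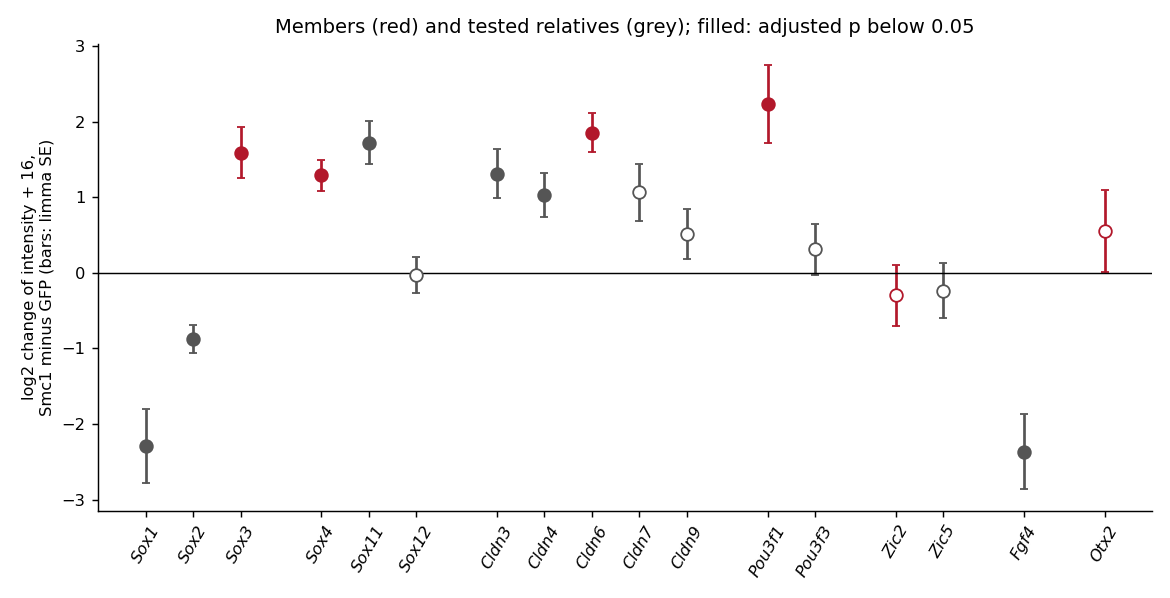
The log2 change in Smc1 relative to GFP cells with its limma SE for the markers (red) and their tested relatives (grey), grouped by gene family and filled where called. Sox3 lies at 1.59 beside Sox1 at -2.29 and Sox2 at -0.88, while Sox4 and Sox11, and Cldn3, Cldn4 and Cldn6, lie on the same side.

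Other formative and primed epiblast genes from a separate list also rose in part. Beside 9.30% of all genes called higher and 4.69% lower in Smc1 cells, 5 of 17 tested were higher and 1 lower, with a median of 0.70. Those were Lefty2, a Nodal antagonist gene (2.02, limma adjusted p = 0.00397), Sox11, the N-cadherin gene Cdh2 (2.50, 0.00776), Grhl2, an epithelial transcription factor (0.88, 0.0304), and Dnmt3b (2.01, 0.0344). Hesx1, a homeobox gene of the early anterior embryo, fell by 1.51 (adjusted p = 0.0356). In CapH2 and Smc2 cells 0 of 17 were called by limma, with medians of 0.67 and 0.39. At an unadjusted p below 0.05, 7 were higher in CapH2 and 6 in Smc2 cells, beside 7.56% and 7.28% of all genes. Hesx1 and Tead2 were lower in each at this threshold, for which no share of all genes is given here.

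Dnmt3b showed the same split between hairpins as Pou3f1. It measured 8532 and 8935 in Smc1 cells, 9522 and 4871 with CapH2 hairpins 3 and 4, 12177 and 2928 with Smc2 hairpins 1 and 2, and 1850 and 2511 in GFP cells. CapH2 hairpin 3 and Smc2 hairpin 1 were at or above the Smc1 level. Against the mean of the condensin knockdowns, Lefty2 alone of the 17 was called, higher in Smc1 cells by 1.24 (limma adjusted p = 0.0224), beside 5.53% of all genes. In the mean of the 3 knockdowns Cdh2 (1.85), Sox11 (1.40) and Lefty2 (1.20) were higher and Hesx1 (-1.61) was lower. Of all genes, 2.54% were called higher in that mean, and the share lower is not given here.

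Naive and core pluripotency genes were mostly lower. Of all genes tested, 4.69% were called lower and 9.30% higher in Smc1 cells. In Smc1 cells 16 of 19 were called lower and 0 higher, with a median of -1.23, among them Tcl1 (-2.67, limma adjusted p = 0.00235), Prdm14 (-2.92, 0.00241), Klf4 (-1.49, 0.00278) and Pecam1 (-2.12, 0.00390). Pou5f1, the core marker of these cells, measured 5521 and 9012 on the Smc1 arrays and 13641 and 11327 on GFP, and was called lower (-0.82, adjusted p = 0.0340), at values far above the array medians. In CapH2 and Smc2 cells 0 of 19 were called by limma. At an unadjusted p below 0.05, 5 were lower and 1, Gbx2, was higher in each (1.70 in CapH2 and 2.16 in Smc2 cells). Of all genes, 7.56% in CapH2 and 7.28% in Smc2 cells were higher at this threshold. The share of all genes lower is not given here, so the 5 lower are a count without a background. Of the primitive streak genes, which follow the primed state, only 3 of 11 on the array could be tested and 0 were called or had an unadjusted p below 0.05 in Smc1 cells. Mixl1, Gsc, Evx1, Lhx1 and Cer1 lay below the median on all 8 arrays.

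**Figure D5:**
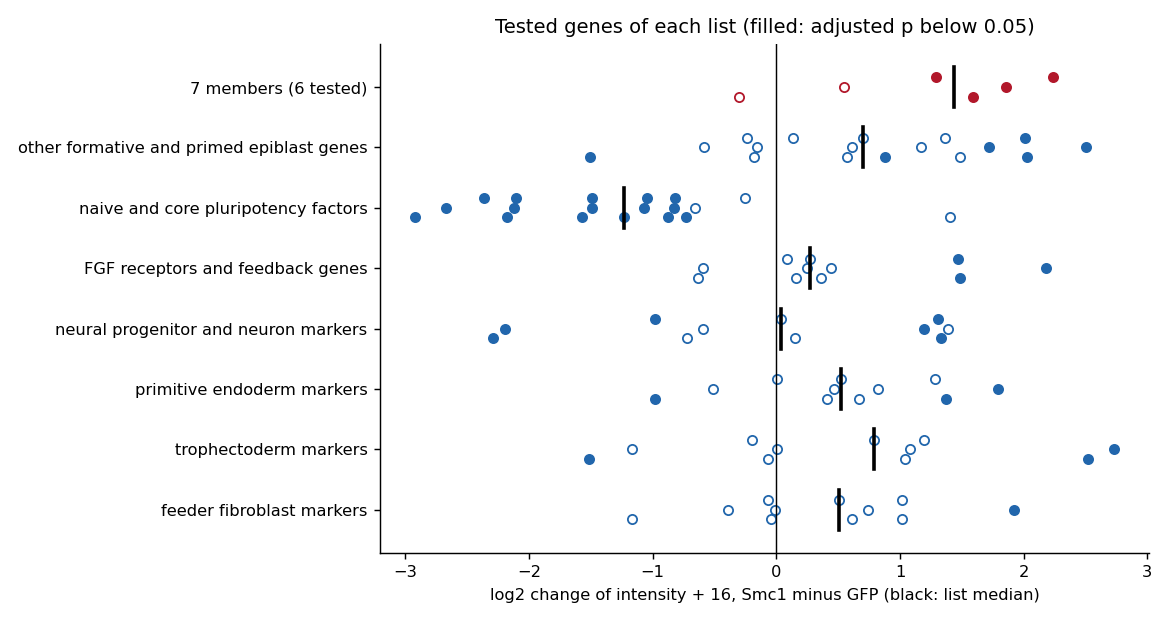
The log2 change in Smc1 relative to GFP cells for the tested genes of each list (filled where called, black bar at the list median). The marker median is 1.44, that of other formative and primed epiblast genes 0.70 and that of naive and core pluripotency factors -1.23.

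Of 11 tested genes of FGF signalling, 3 were called higher in Smc1 cells and 0 lower, beside 9.30% and 4.69% of all genes. The 3 were Egr1, an early target of the ERK pathway (2.18, limma adjusted p = 0.0316), the feedback inhibitor gene Spry2 (1.47, 0.0223) and the receptor gene Fgfr2 (1.49, 0.0330). Egr1 also was called in the mean of the 3 knockdowns (2.05, adjusted p = 0.0448). Its arrays differed within every knockdown, also between the 2 Smc1 replicates of 1 hairpin, at 1990 and 1006 in Smc1 cells, 2086 and 925.2 with CapH2 hairpins 3 and 4, 2104 and 568.5 with Smc2 hairpins 1 and 2, and 287.8 and 313.1 in GFP cells.

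Markers of other cells that express some of the 7 genes were read in the same comparison. Of all genes tested, 9.30% were called higher and 4.69% lower in it. Of 11 tested neural genes 3 rose in Smc1 cells (Map2, Pax6 and Nes, by 1.33, 1.31 and 1.19) and 3 fell (Stmn2 by 0.98, Olig2 by 2.20, and Sox1), with a median of 0.04. The summed intensity of the 17 neural genes on the array was 9731 and 8180 on the Smc1 arrays, against 14183 and 15456 on CapH2, 15222 and 13925 on Smc2, and 15674 and 14873 on GFP. Stmn2 alone made up most of each sum, at 7388 and 5829 in Smc1 and 13486 and 12488 in GFP cells. The lower Smc1 sum therefore reflects Stmn2 and does not show lower neural genes in general. Of 11 primitive endoderm genes 2 rose (Dab2 by 1.79 and Pdgfra by 1.37) and Lamc1 fell by 0.98. Of 11 feeder fibroblast genes 1 rose (Col3a1 by 1.92), close to the share of all genes. Col6a1, Lum, Dcn, Twist2 and Prrx1 lay below the median on all 8 arrays. The 16 fibroblast genes summed to 23556 and 25775 in Smc1 cells, 20511 and 18539 in CapH2 cells, 16333 and 16961 in Smc2 cells, and 16228 and 24983 in GFP cells. Fn1, Vim and Acta2, none of them called in Smc1 against GFP cells, made up most of each of these sums. The part of such cells in the marker changes was not tested.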

How the data were processed

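The deposited values are intensity, a linear summary per probe set and array that the authors had scaled to a common mean (2% trimmed means between 488.9 and 490.0, checked on the values); the sources used here do not give how probes were summarised. Of 44903 probe sets, the 34771 with exactly 1 symbol, array controls left out, were used, and each of 18140 genes was read from its brightest probe set on average. Genes above the array median on at least 2 of 8 arrays were tested, which left 12394. Log2(intensity + 16) was fitted over all 8 arrays with limma 3.58.1 in R 4.3.3 (group means, variance trend on intensity, residual degrees of freedom 4, prior 5.97) for 6 comparisons, with Benjamini-Hochberg adjustment over all genes in each. The fit was tested on simulated data. With 2 arrays per group, their number limits the precision, and each p-value rests on a spread pooled over hairpins and replicates. The markers, lists and tests were chosen with earlier results of these data known. Named genes were the 7 markers, the targets, Pou5f1, Nanog and Sox2, up to 4 called genes per list and comparison with the smallest adjusted p, and the 2 genes most like each marker by Pearson's r. Further list members given in the text were chosen after their values were seen. Promoter sequences are from RefSeq (GRCm38.p6). Offsets, filter, normalization, trend, probe set choice, arrays in the fit, the Actb ratio and left-out arrays were varied.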

Additional observations from a re-analysis of the deposited data

How the results depend on the processing

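The calls differed in how far they held. In Smc1 against GFP, Cldn6 and Sox4 were called under 11 of 11 processing alternatives, Sox3 under 9 and Pou3f1 under 8, and with 1 array left out in 7, 6, 4 and 4 of 8 fits. Against the condensin mean, Cldn6 was called under 10 of 10 and in 7 of 8 fits, but Sox4 under 5 of 10 and in 1 of 8. In the mean of 3, Sox3 was called under 5 of 9 and in 3 of 8, and Sox4 under 5 of 9 and in 4 of 8. Of the 4 markers called in Smc1 against GFP cells, 2 were called with all probe sets of a gene averaged and 2 with the Actb ratio as a term, and between 0 and 4 when 1 array was left out. In Smc2 against GFP, leaving out 1 array gave between 0 and 2 called. In the mean of the 3 knockdowns, 0 of the 2 were called with no expression filter, no intensity trend, averaged probe sets or the Actb term, and between 0 and 4 with 1 array left out. In Smc1 against the condensin mean, 1 of the 2 was called with no filter, median centring, no trend, averaged probe sets, or only the arrays compared, and between 0 and 3 with 1 array left out. The replicate block over the Smc1 and GFP arrays called the same 4 markers (Pou3f1 at adjusted p = 0.0451). The labels share only a number, and the correlation of replicate differences was 0.0667 over 12394 genes, from 2 pairs.

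All 37 changes of sign, in 18 results, were of changes called in neither fit. With the Actb term, Cldn6 (-0.27), Otx2 (-0.073) and Zic2 (-0.004) turned in CapH2 against GFP, Cldn6 (-0.083) in Smc2 against GFP and Zic2 (-0.05) in the mean of 3. With averaged probe sets Sox4 turned to 0.031 in CapH2 minus Smc2. Leaving out 1 array gave, in Smc1 against GFP, -0.44 to 1.54 for Otx2 and -0.88 to 0.29 for Zic2. In CapH2 against GFP it gave -0.33 to 0.365 for Cldn6, -0.415 to 0.57 for Otx2 and -0.16 to 0.35 for Zic2. In Smc2 against GFP it gave -0.11 to 0.16 for Cldn6, -0.39 to 0.60 for Otx2 and -0.11 to 0.74 for Zic2. In the mean of 3 it gave -0.25 to 0.74 for Otx2 and -0.22 to 0.29 for Zic2, and in Smc1 against the condensin mean -0.53 to 1.45 and -1.09 to 0.078. In CapH2 minus Smc2 it gave -1.01 to 0.52 for Pou3f1, -0.36 to 0.34 for Cldn6, -0.66 to 0.50 for Sox3, -0.26 to 0.20 for Sox4, -0.29 to 0.24 for Otx2 and -0.64 to 0.21 for Zic2.

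Genes called over the whole array moved more. With 1 array left out they numbered 132 to 2201 for Smc1 against GFP (1734 with all arrays), 0 to 4 for CapH2 (2), 0 to 195 for Smc2 (2), 1 to 1208 for the mean of 3 (418), 10 to 1158 against the condensin mean (961) and 0 to 3 for CapH2 minus Smc2 (1). Under the processing alternatives they numbered 569 to 2761, 1 to 5, 0 to 53, 5 to 803, 594 to 1646 and 0 to 2 in that order. A group left with 1 array was assumed to vary like the others. The cause of these shifts was not tested. Without detection calls, signal over background was not known, which limits Fgf5 most.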
